A study of Mus musculus with 12 samples.

Results

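The RAS-MAPK pathway components described here are 40 genes chosen by name: receptor tyrosine kinases, adaptors, exchange factors, RAS-family GTPases, their negative regulators, and the kinases and scaffolds downstream. Every array probe set annotated to 1 of these symbols was taken, probe sets with a log2 value over 4 on at least 3 of the 12 arrays were kept, and the kept probe set with the highest mean stood for its gene. Of the 40 genes, 36 had a listed probe set and 35 passed, out of 11449 genes that passed on the arrays as a whole. Hras, Mapk3, Rps6ka1 and Rps6ka2 are not analysed here. Erbb4 did not pass, with values of 2.60 to 2.87, near the floor of 2.19 that was the lowest value on every array. Just inside the filter stood Erbb2, which passed through embryonic arrays alone. Erbb3 and Rasgrf1 passed through adult arrays alone, so a stage difference was built into these 3 genes, and the counts over the 35 are descriptions.

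The groups were adult dorsal cerebral cortex of Qkf gt/gt mutant males (155, 112 and 99 days old), adult cortex of wild-type males (155, 112 and 101 days old), dorsal telencephalon of Qkf gt/gt mutant embryos at the embryonic stage E12.5 and that of wild-type embryos at E12.5, with 3 Affymetrix arrays in each and the 129/Sv strain throughout. Qkf is another name of Kat6b, a histone acetyltransferase gene, and gt marks a gene-trap allele, present here on both chromosomes. The arrays asked which transcripts depend on this enzyme at the 2 stages, and the same 4 groups show how the pathway differs between mature cortex and the early forebrain wall. The sources used here do not say whether an embryonic array held 1 embryo or a pool.

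The RAS-MAPK pathway carries signals from growth factor receptors at the cell surface to the nucleus. A receptor tyrosine kinase that binds its ligand recruits adaptors, these bring exchange factors that load RAS GTPases with GTP, and active RAS starts a relay of RAF, MEK and ERK kinases, which GTPase-activating proteins and other negative regulators turn down. In the embryonic telencephalon fibroblast growth factor receptors act on dividing progenitors, while in mature cortex neurotrophin receptors and calcium-responsive exchange factors tie the pathway to synaptic activity.

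Kat6b itself stood at 7.11 ± 0.17 in adult mutants against 9.58 ± 0.21 in adult wild types, and at 7.06 ± 0.77 in embryonic mutants against 11.37 ± 0.08 in embryonic wild types (log2 values, SD, n = 3 each). It fell by 2.47 in adults (limma, adjusted p = 0.017) and by 4.31 in embryos (limma, adjusted p = 0.00019), in the direction the labels give. On each array 29.4% to 30.9% of values lay within 0.01 of the floor, so differences that reach it understate the change. Arrays of a group correlated at 0.989 to 0.997 over all probe sets. Precision is limited by the number of arrays, which give no counts. A log2 value of 1 probe set cannot be set against that of another, so genes are compared below by their differences only.

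The promoters of some members with large stage differences in either direction show what lay upstream of these genes. For the 2 largest rises and the 2 largest falls among members with a single listed start, the 250 bases before the RefSeq start are printed 5′ to 3′ on the gene's own strand (GRCm38.p6, Rasgrp1 on the minus strand and the others on the plus strand), with capitals marking the GC box, GGGCGG or its reverse complement CCGCCC.
Rasgrf1, chr9:89909525-89909774: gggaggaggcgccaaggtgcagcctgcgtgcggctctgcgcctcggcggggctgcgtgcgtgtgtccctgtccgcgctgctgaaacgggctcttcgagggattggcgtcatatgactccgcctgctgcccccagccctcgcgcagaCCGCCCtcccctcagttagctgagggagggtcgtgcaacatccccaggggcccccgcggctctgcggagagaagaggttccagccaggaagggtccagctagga
Rasgrp1, chr2:117342878-117343127: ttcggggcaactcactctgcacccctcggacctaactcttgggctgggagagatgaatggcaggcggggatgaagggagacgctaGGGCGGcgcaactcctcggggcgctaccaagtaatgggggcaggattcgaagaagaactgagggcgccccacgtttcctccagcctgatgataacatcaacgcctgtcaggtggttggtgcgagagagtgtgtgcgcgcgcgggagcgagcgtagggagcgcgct
Nras, chr3:103058035-103058284: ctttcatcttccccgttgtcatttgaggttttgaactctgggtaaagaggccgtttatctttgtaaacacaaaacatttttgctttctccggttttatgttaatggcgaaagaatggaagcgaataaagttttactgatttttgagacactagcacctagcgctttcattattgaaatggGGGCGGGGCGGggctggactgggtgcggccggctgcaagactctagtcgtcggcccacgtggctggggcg
Erbb2, chr11:98412234-98412483: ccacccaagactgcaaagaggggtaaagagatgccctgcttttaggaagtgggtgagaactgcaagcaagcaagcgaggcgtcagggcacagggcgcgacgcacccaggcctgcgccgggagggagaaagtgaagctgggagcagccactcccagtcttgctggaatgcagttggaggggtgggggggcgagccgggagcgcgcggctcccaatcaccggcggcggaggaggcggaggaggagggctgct
So few genes cannot show whether this motif goes with the direction of the stage difference. Rasgrf1 and Rasgrp1 held 1 GC box each, Nras held 2 that share a base, and Erbb2 held 0. Their windows held 21 CpG dinucleotides for Rasgrf1, 21 for Rasgrp1, 14 for Nras and 16 for Erbb2. Over the 44 listed starts of the 34 members that matched, 63.6% had a GC box on either strand, and the median window held 19.5 CpG. Over all 32851 promoter windows of this length the share was 32.7% and the median 6.0 CpG. These windows were not limited to genes past the filter, unlike the backgrounds given below. Whether genes past the filter as a whole differ from 32.7% was not analysed. A match describes letters in the window and no binding.

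Adult cortex and E12.5 telencephalon differed in most of the pathway. In wild types 29 of 35 members passed the test (limma over all 12 arrays, Benjamini-Hochberg adjusted p under 0.05), 14 higher and 15 lower in adults. Over all genes 81.4% passed, 38.4% higher and 43.0% lower, so the members' count is near the background. By at least 2-fold 10 members were higher and 7 lower, and 56.2% of all genes passed with a difference of that size. The median over the members was -0.08 on the log2 scale, and -0.08 over all genes. The members are given role by role below, with the highest-mean probe set of each gene.

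**Figure D1:**
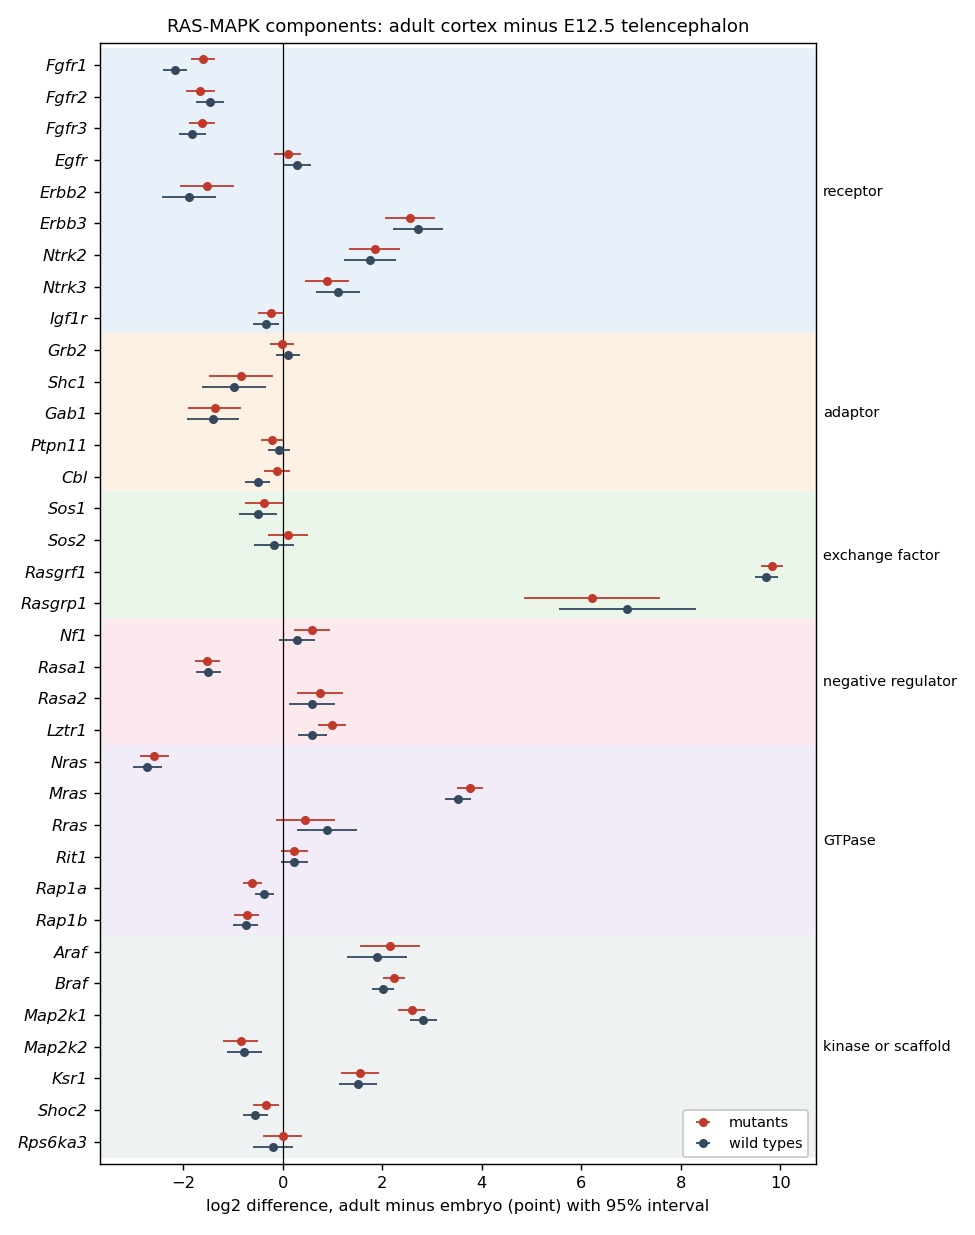
Log2 difference, adult cortex minus E12.5 telencephalon, for the 35 members grouped by role, with mutants above wild types for each gene (points, limma estimates; bars, 95% intervals; 3 arrays a group). Rasgrf1 (9.83 in mutants, 9.72 in wild types) and Rasgrp1 (6.21 in mutants, 6.93 in wild types) lie far to the right, and Nras (-2.58 in mutants, -2.72 in wild types) lies furthest to the left.

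Among the 9 measured receptors 4 rose and 5 fell in adult wild types, and the 3 fibroblast growth factor receptors fell together. Fgfr1 stood at 7.71, 7.67 and 7.64 in adult mutants and 7.08, 7.23 and 7.40 in adult wild types, against 9.21, 9.19 and 9.41 in embryonic mutants and 9.53, 9.34 and 9.34 in embryonic wild types. Both adult groups lay far below both embryonic groups, a 4.49-fold difference in wild types (log2 difference -2.17, SE 0.11). Fgfr3, a receptor of progenitors and later of astrocytes, stood at 10.51, 10.49 and 10.57 in adult mutants and 10.26, 10.34 and 10.38 in adult wild types, against 12.11, 12.01 and 12.30 in embryonic mutants and 12.01, 12.01 and 12.38 in embryonic wild types. It was 3.51-fold lower in adult wild types, again with no overlap. Fgfr2 stood at 8.10, 8.14 and 7.88 in adult mutants and 8.49, 8.29 and 8.08 in adult wild types, against 9.68, 9.76 and 9.63 in embryonic mutants and 9.58, 9.77 and 9.91 in embryonic wild types, and was 2.76-fold lower in adult wild types.

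The receptors of the ERBB family went in different directions. Erbb2, a co-receptor with no known ligand of its own, was at the floor of 2.19 on all 6 adult arrays and at 3.12, 3.71 and 4.32 in embryonic mutants and 4.19, 3.74 and 4.29 in embryonic wild types. Its embryonic values were low too, and the difference of -1.88 in wild types understates any change. Erbb3, a neuregulin receptor found in oligodendrocyte lineage cells, stood at 5.91, 6.65 and 5.53 in adult mutants and 6.46, 6.21 and 6.09 in adult wild types, against 3.51, 3.29 and 3.59 in embryonic mutants and 3.53, 3.53 and 3.53 in embryonic wild types. It rose by 2.73 in wild types, and its embryonic values all lay below the filter of 4. Egfr, the epidermal growth factor receptor, differed by 0.30 (adjusted p = 0.038), with adult and embryonic wild-type arrays overlapping. That call ended without adult wild type 1 (0.23, adjusted p = 0.14) or 2 (0.29, adjusted p = 0.084) and without embryonic wild type 2 (0.28, adjusted p = 0.097) or 3 (0.24, adjusted p = 0.13).

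The neurotrophin receptors rose. Ntrk2, the receptor of brain-derived neurotrophic factor, stood at 10.25, 10.38 and 10.35 in adult mutants and 10.45, 10.66 and 10.24 in adult wild types, against 8.54, 8.0 and 8.91 in embryonic mutants and 8.95, 8.25 and 8.89 in embryonic wild types. Every adult array lay above every embryonic one, by 3.37-fold in wild types (log2 difference 1.75, SE 0.24). Ntrk3, the receptor of neurotrophin 3, averaged 9.44 ± 0.02 in adult mutants and 9.47 ± 0.11 in adult wild types, against 8.54 ± 0.22 in embryonic mutants and 8.36 ± 0.47 in embryonic wild types (SD, n = 3 each). It was 2.16-fold higher in adult wild types. Igf1r, the receptor of insulin-like growth factor 1, was 1.27-fold lower, and its call ended without adult wild type 1 (adjusted p = 0.066) or 3 (0.058) and without embryonic wild type 2 (0.076) or 3 (0.060).

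Adaptors and their partners fell or did not pass the test. Gab1, a docking protein, stood at 7.67, 7.61 and 7.24 in adult mutants and 7.69, 7.63 and 7.67 in adult wild types, against 8.44, 9.02 and 9.17 in embryonic mutants and 8.55, 9.20 and 9.45 in embryonic wild types. The groups did not overlap by stage, and adult wild types were 2.65-fold lower. Shc1, which links receptors to Grb2, stood at 5.86, 5.60 and 5.66 in adult mutants and 5.39, 5.66 and 5.73 in adult wild types, against 6.75, 5.74 and 7.13 in embryonic mutants and 6.69, 6.26 and 6.75 in embryonic wild types. It was 1.96-fold lower in adult wild types (log2 difference -0.97, SE 0.29), and embryonic mutant 2 lay within the adult mutant range. Cbl, a ubiquitin ligase that takes active receptors out of use, was 1.42-fold lower in adult wild types. Grb2, the adaptor that carries SOS to receptors, differed by 0.11 and Ptpn11, the phosphatase SHP2, by -0.08, and neither passed.

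On the highest-mean probe sets the exchange factors held the 2 largest differences of all members. The receptor gene Ntrk2 rose by up to 8.47 on another probe set. Rasgrf1, a calcium-responsive exchange factor of neurons, stood at 12.13, 12.01 and 12.08 in adult mutants and 11.99, 11.74 and 12.09 in adult wild types, against 2.20, 2.26 and 2.26 in embryonic mutants and 2.20, 2.20 and 2.26 in embryonic wild types. It was at or near the floor on all 6 embryonic arrays and high on all 6 adult arrays, and its difference of 9.72 in wild types is therefore understated. Rasgrf1 passed the filter through adult arrays alone, so a stage difference was built in and its size is a description. Rasgrp1, which answers to calcium and diacylglycerol, stood at 12.39, 12.24 and 11.85 in adult mutants and 12.22, 12.09 and 12.05 in adult wild types, against 6.94, 4.89 and 6.02 in embryonic mutants and 6.65, 5.07 and 3.86 in embryonic wild types. Adults were tight and embryos were spread over more than 3 log2 units, with a difference of 6.93 in wild types (SE 0.62). The general exchange factors, which serve receptors in most cells, moved little: Sos1 was 1.40-fold lower in adult wild types and Sos2 differed by -0.18, which did not pass. The call of Sos1 ended without adult wild type 3 (adjusted p = 0.069) or embryonic wild type 2 (0.087).

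**Figure D2:**
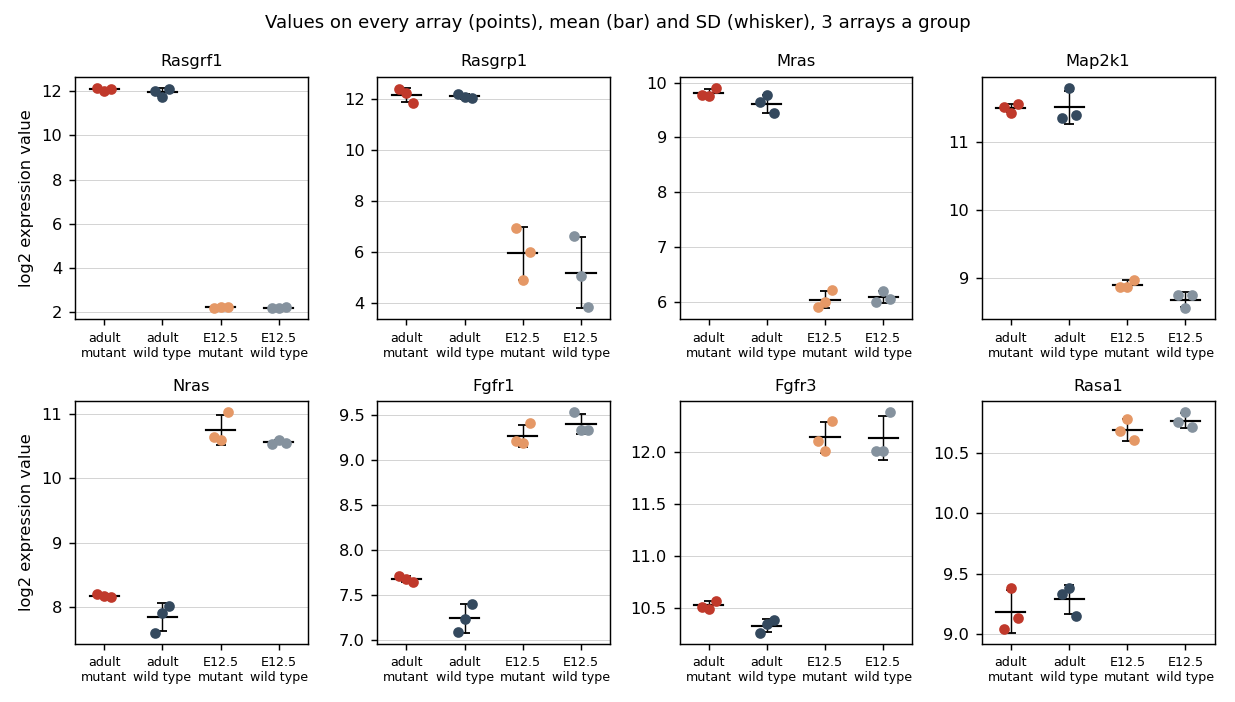
Log2 expression values on every array for 4 members that were higher and 4 that were lower in adults (points, arrays; bar, mean; whisker, SD; 3 arrays a group; each panel has its own axis, which does not start at 0). In all 8 panels the adult and embryonic arrays lie apart, and for Rasgrp1 the embryonic arrays run from 3.86 to 6.94.

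Of the 4 negative regulators, 2 rose, 1 fell and 1 did not pass in wild types. Rasa1, a GTPase-activating protein that docks on receptors, stood at 9.04, 9.38 and 9.13 in adult mutants and 9.33, 9.38 and 9.15 in adult wild types, against 10.69, 10.79 and 10.61 in embryonic mutants and 10.76, 10.84 and 10.72 in embryonic wild types. It was 2.81-fold lower in adult wild types, with the stages well apart. Lztr1, which marks RAS proteins for ubiquitination, averaged 10.86 ± 0.09 in adult mutants and 10.77 ± 0.17 in adult wild types, against 9.87 ± 0.15 in embryonic mutants and 10.17 ± 0.20 in embryonic wild types (SD, n = 3 each). It was 1.52-fold higher in adult wild types, and Rasa2, another GTPase-activating protein, was 1.51-fold higher. The call of Rasa2 ended without adult wild type 1 (adjusted p = 0.068) or 2 (0.066) and without embryonic wild type 1 (0.061). Nf1, the gene of neurofibromin, differed by 0.29 and did not pass in wild types (adjusted p = 0.12).

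The GTPases went in opposite directions, with 2 of 6 higher and 3 lower in adult wild types. Nras stood at 8.20, 8.17 and 8.16 in adult mutants and 7.60, 7.91 and 8.02 in adult wild types, against 10.64, 10.60 and 11.02 in embryonic mutants and 10.53, 10.60 and 10.55 in embryonic wild types. It was 6.57-fold lower in adult wild types (log2 difference -2.72, SE 0.13). Mras, a RAS relative that joins SHOC2 in activating RAF kinases, stood at 9.77, 9.75 and 9.90 in adult mutants and 9.64, 9.77 and 9.44 in adult wild types, against 5.91, 5.99 and 6.21 in embryonic mutants and 5.99, 6.20 and 6.06 in embryonic wild types. It was 11.6-fold higher in adult wild types (log2 difference 3.53, SE 0.12), and neither gene's stages overlapped. Rras, which acts on integrins, averaged 6.61 ± 0.47 in adult mutants and 6.67 ± 0.23 in adult wild types, against 6.15 ± 0.31 in embryonic mutants and 5.78 ± 0.44 in embryonic wild types (SD, n = 3 each). It was 1.85-fold higher in adult wild types, while the RAP GTPases Rap1a and Rap1b, linked to cell adhesion and to BRAF, were 1.29-fold and 1.68-fold lower. Rit1 differed by 0.23 and did not pass (adjusted p = 0.093). It was called without embryonic mutant 1, an array of neither group that enters through the shared spread (adjusted p = 0.032).

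Of the 7 kinases and scaffolds 4 were higher and 2 lower in adult wild types, where 38.4% of all genes were higher and 43.0% lower. The 4 include Araf, for which probe sets passed in opposite directions. Map2k1, the kinase MEK1, stood at 11.51, 11.43 and 11.55 in adult mutants and 11.35, 11.79 and 11.39 in adult wild types, against 8.87, 8.86 and 8.97 in embryonic mutants and 8.75, 8.55 and 8.74 in embryonic wild types. It was 7.10-fold higher in adult wild types (log2 difference 2.83, SE 0.12). Its close relative Map2k2, the kinase MEK2, averaged 8.26 ± 0.33 in adult mutants and 8.21 ± 0.10 in adult wild types, against 9.11 ± 0.20 in embryonic mutants and 8.98 ± 0.12 in embryonic wild types (SD, n = 3 each). It went the other way on its highest-mean probe set and was 1.70-fold lower in adult wild types. Its second probe set differed by 0.01 and did not pass. Braf, a RAF kinase abundant in neurons, stood at 10.19, 10.20 and 10.02 in adult mutants and 10.11, 10.29 and 9.99 in adult wild types, against 7.85, 7.92 and 7.91 in embryonic mutants and 8.18, 8.06 and 8.07 in embryonic wild types, and was 4.07-fold higher in adult wild types. Araf stood at 11.04, 11.46 and 11.06 in adult mutants and 11.15, 10.83 and 11.53 in adult wild types, against 9.48, 9.28 and 8.35 in embryonic mutants and 9.21, 9.45 and 9.16 in embryonic wild types, and was 3.73-fold higher on this probe set, while 2 other probe sets of Araf fell. Ksr1, a scaffold that holds RAF and MEK together, averaged 7.11 ± 0.11 in adult mutants and 6.99 ± 0.16 in adult wild types, against 5.55 ± 0.24 in embryonic mutants and 5.48 ± 0.32 in embryonic wild types (SD, n = 3 each). It was 2.85-fold higher in adult wild types. Shoc2, a scaffold that brings a phosphatase to RAF, was 1.46-fold lower, and Rps6ka3, an ERK-activated kinase of ribosomal protein S6, differed by -0.20 without passing.

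A gene stood on 1 probe set in these tests, and the agreement among probe sets differed by gene. Of the 26 members with more than 1 probe set past the filter, 20 had the same sign of the wild-type stage difference on all of them. All 3 probe sets of Nras fell (-2.72, -2.73 and -4.03), as did both of Fgfr1 (-2.17 and -1.93), Fgfr2 (-1.47 and -2.03) and Fgfr3 (-1.81 and -1.66) and all 3 of Gab1 and of Rasa1. The 3 probe sets of Rasgrf1 rose by 1.88 to 9.72 and the 4 of Rasgrp1 by 2.88 to 6.93.

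For 4 genes probe sets passed in opposite directions. Araf rose by 1.90 on its highest-mean probe set and by 3.34 on another, and fell by 1.96 and 2.67 on 2 more. With the mean of its probe sets the stage difference was 0.15 in wild types (adjusted p = 0.30), so the direction of Araf rests on the probe set. Lztr1 rose by 0.60 and 1.02 on 2 probe sets and fell by 1.28 on the third, and with their mean it differed by 0.11 (adjusted p = 0.36). Braf rose on 4 of its 8 probe sets, by 0.29, 0.75, 2.03 and 2.04, and fell by 0.45 on 1 of the others, and Rap1b fell by 0.75 and 0.70 on 2 and rose by 0.42 on the third. Which transcripts each of these probe sets detects was not analysed here.

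The size also depended on the probe set where the sign did not. Ntrk2 rose on all 6 probe sets, by 1.08 to 8.47, and its highest-mean probe set, at 1.75, lay near the low end. Egfr rose by 0.30 on 1 probe set and by 2.75 on the other. Grb2, not called on its highest-mean probe set, rose by 1.24 on its second, and it was called with the mean of both (0.67, adjusted p = 0.0033).

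**Figure D3:**
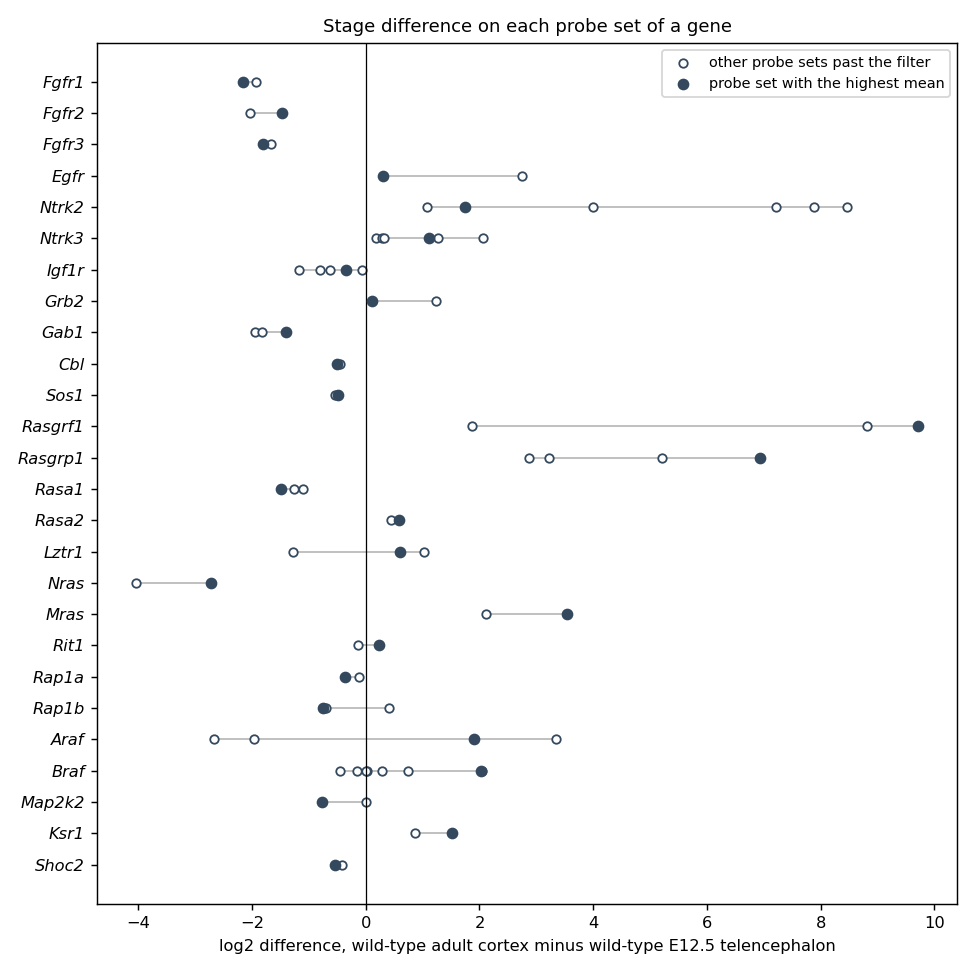
Log2 difference, wild-type adult cortex minus wild-type E12.5 telencephalon, on each probe set past the filter for the 26 members with more than 1 (filled points, highest-mean probe set; open points, the others; lines join probe sets of a gene). Nras, Fgfr1, Fgfr2 and Fgfr3 lie left of 0 on every probe set, while those of Araf, Lztr1, Rap1b and Braf lie on both sides.

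The stage difference was measured again in mutants, on arrays that the wild-type comparison does not use. There 25 of 35 members passed, 13 higher and 12 lower, against 81.7% of all genes, 39.5% higher and 42.2% lower. In both genotypes 24 members passed, each in the same direction. Egfr, Igf1r, Cbl, Sos1 and Rras passed in wild types alone and Nf1, at 0.59 (adjusted p = 0.0056), in mutants alone. The test of the difference between the genotypes, given below, was passed by none of these, so they are not shown to differ. In mutants the fall of Shc1 of 0.83 became 0.54 without embryonic mutant 3 and lost its call (adjusted p = 0.087), and its call also ended without embryonic mutant 1 (0.73, adjusted p = 0.065) or adult mutant 2 (0.78, adjusted p = 0.057). Over all 22 alternatives that call was lost in 7, and the difference shrank to -0.31 with array weights (adjusted p = 0.30). That of Shoc2 ended without adult mutant 3 (adjusted p = 0.069) or embryonic mutant 3 (0.067). Sos1 passed without adult mutant 1 (adjusted p = 0.018) and Igf1r without embryonic mutant 1 (0.040).

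Markers of many but not all cell classes examined moved with stage in the same arrays. The mean of 6 of 6 mature neuron markers was 12.93 to 13.11 on adult arrays and 4.76 to 5.33 on embryonic arrays. Astrocyte markers (6 of 6 measured) averaged 10.60 to 10.82 in adults and 5.06 to 5.79 in embryos, oligodendrocyte markers (5 of 6) 9.73 to 10.26 in adults and 3.18 to 3.78 in embryos, and microglia markers (6 of 6) 7.35 to 8.10 in adults and 3.84 to 4.49 in embryos. Radial glia and progenitor markers (6 of 6) averaged 5.16 to 5.38 in adults and 10.84 to 11.02 in embryos, and cycling cell markers (5 of 6) 4.13 to 4.25 in adults and 11.75 to 11.95 in embryos. Blood markers (3 of 6) averaged 2.73 to 3.61 in adults and 10.01 to 11.58 in embryos. The stages overlapped for endothelium markers (5 of 6), at 5.26 to 5.73 in adults and 5.35 to 5.82 in embryos. They also overlapped for ventral telencephalon markers (4 of 6), at 5.24 to 6.01 in adults and 3.92 to 7.59 in embryos. Choroid plexus markers (4 of 6) ran from 3.96 to 6.58 in adults and 6.27 to 8.20 in embryos. The part of cell makeup, and of the RNA quality given below, in the members' stage differences was not tested. In bulk tissue fewer cells of a type and less RNA per cell cannot be told apart, and stage cannot be told apart from the dissected region.

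Other genes of the pathway, from lists of 49 components, 21 receptor ligands and 17 feedback and target genes of ERK, were also compared between stages. Of 37 other components measured, 19 were higher and 13 lower in adult wild types, which is 86.5% called against 81.4% of all genes. Rasgrf2, the relative of Rasgrf1, differed by 8.25 and Rap1gap, which switches off RAP GTPases, by 5.84. Both passed the filter through adult arrays alone, as did 3 others of this list, so that a stage difference was built into them and its size is a description. The largest falls were of the kinase gene Rps6ka6 (-6.33) and the insulin receptor substrate gene Irs1 (-2.68).

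Of the 21 ligands 9 were measured, and 7 of these were higher and 2 lower in adult wild types, where 38.4% of all genes were higher and 43.0% lower. Bdnf, the ligand of Ntrk2, differed by 5.73, and it passed the filter through adult arrays alone, as did Fgf1. The neuregulin gene Nrg3 differed by 5.70, with an embryonic wild-type mean of 2.88 that also lay below the filter. Igf2, a fetal growth factor gene, fell by 1.87 and Nrg1 by 0.77. Of 15 feedback and target genes 9 were higher and 5 lower, which is 93.3% called against 81.4% of all genes. Egr1 and Fos are transcription factor genes that neuronal activity induces. Egr1 rose by 6.60, while Fos, which passed the filter through adult arrays alone, differed by 4.83, and Dusp4, which encodes a phosphatase of ERK, fell by 3.34 and Ier2 by 2.60.

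Between genotypes no member passed the test at either stage. In adult cortex 0 of 35 members passed, against 0.0524% of all genes (6 genes), and 4 members had an unadjusted limma p under 0.05, against 520 of all 11449 genes. The difference was positive for 22 members and negative for 13, with a median of 0.05 on the log2 scale, against 0.03 over all genes. The arrays of the genotypes did not overlap for 5 members, 3 higher and 2 lower in mutants, while 9.38% of all genes did not overlap. The median 95% interval of a single member, unadjusted for the number of genes, reached 0.289 to either side. On the highest-mean probe sets the adult differences ran from -0.34 to 0.44.

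**Figure D4:**
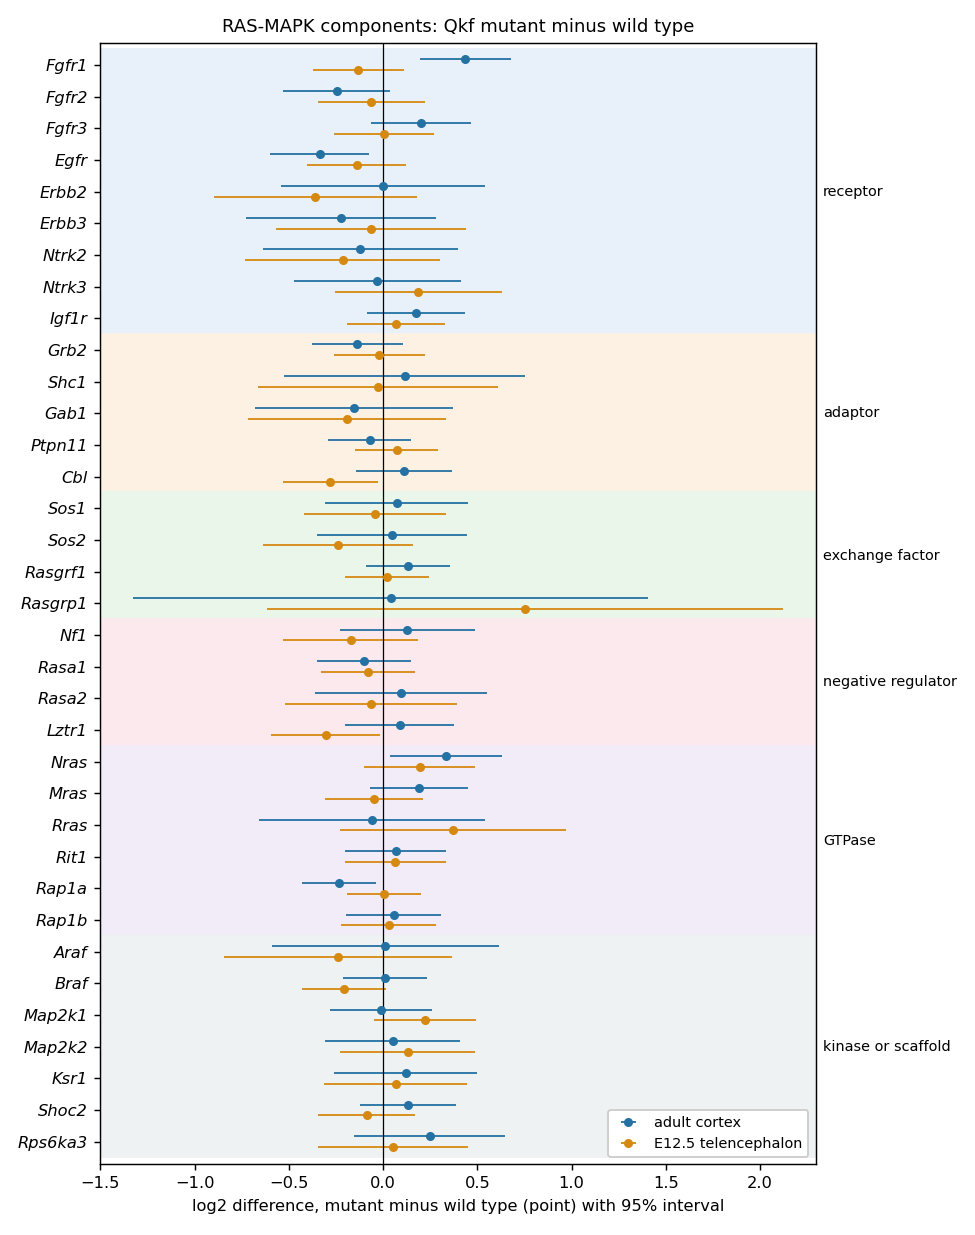
Log2 difference, Qkf mutant minus wild type, for the 35 members grouped by role, with adult cortex above E12.5 telencephalon for each gene (points, limma estimates; bars, 95% intervals; 3 arrays a group). The points lie close to 0 for most members, with Fgfr1 at 0.44 in adults the furthest adult point and Rasgrp1 at 0.75 in embryos the furthest embryonic one, within a wide interval.

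Fgfr1 had the lowest p in adults. It stood at 7.71, 7.67 and 7.64 in adult mutants and at 7.08, 7.23 and 7.40 in adult wild types. Every mutant array lay above every wild-type array, a 1.35-fold difference (log2 difference 0.44, SE 0.11, 95% interval 0.20 to 0.68) that did not pass (limma, adjusted p = 0.67). On the second probe set of Fgfr1 the difference was 0.17, with the genotypes overlapping.

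Egfr stood at 6.52, 6.43 and 6.36 in adult mutants and 6.91, 6.79 and 6.61 in adult wild types. All 3 mutant arrays lay below the wild types, with a log2 difference of -0.34 (95% interval -0.60 to -0.07, limma adjusted p = 1), and the second probe set differed by 0.11 the other way. Rap1a stood at 10.52, 10.60 and 10.54 in adult mutants and 10.86, 10.86 and 10.66 in adult wild types. The mutant arrays again all lay lower, with a difference of -0.23 (limma, adjusted p = 1), while the second probe set differed by 0.00. Nras differed by 0.33 in adults (95% interval 0.04 to 0.63), with 0.15 and -0.13 on its other probe sets. Over the 26 members with more than 1 probe set past the filter, all probe sets shared the sign of the adult difference for 8.

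By role, on the highest-mean probe sets, the 4 exchange factors were all positive with a median of 0.06, the receptors were positive for 3 of 9 with a median of -0.03, and the kinases and scaffolds positive for 6 of 7 with a median of 0.05. Over all genes 6715 of 11449 were positive in adults. Rasgrp1 differed by 0.04 on its highest-mean probe set and by -0.78, -0.46 and -0.65 on its other probe sets, and Shoc2 by -0.66 on another probe set. None of these passed.

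**Figure D5:**
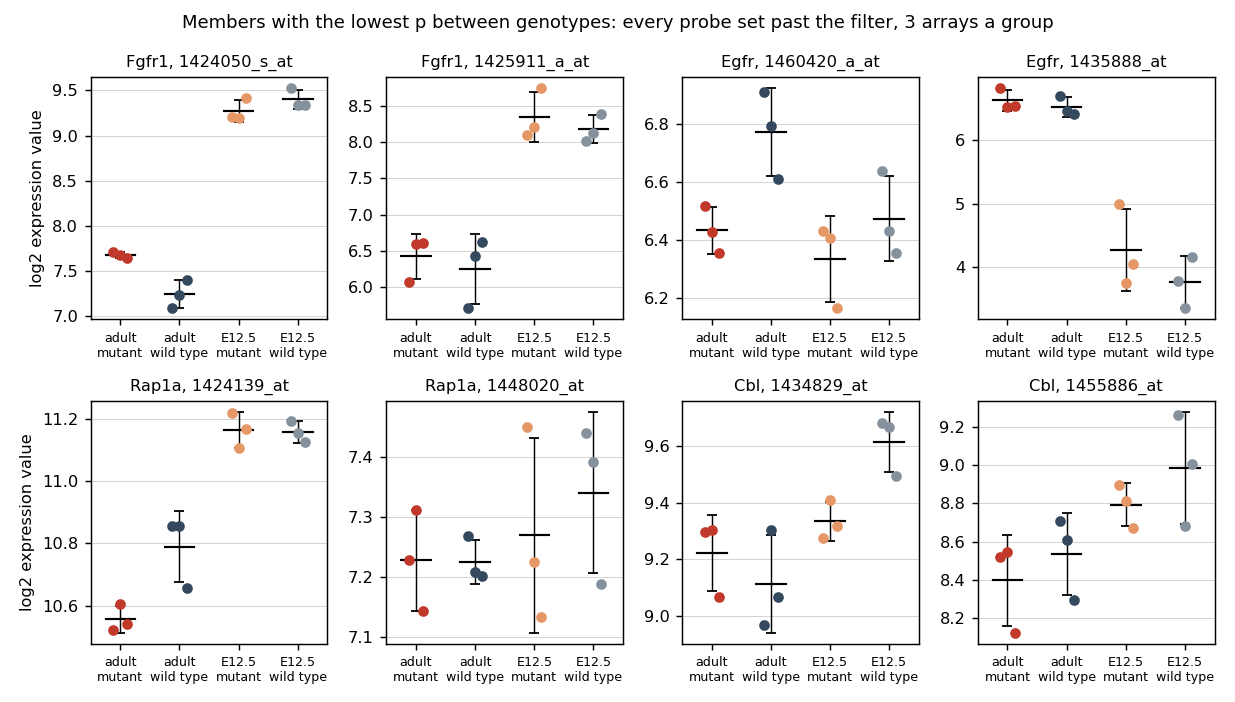
Log2 expression values on every array for each probe set past the filter of Fgfr1, Egfr, Rap1a and Cbl (points, arrays; bar, mean; whisker, SD; 3 arrays a group; each panel has its own axis, which does not start at 0). For Fgfr1, Egfr and Rap1a the adult genotypes lie apart on the highest-mean probe set and overlap on the other, and the embryonic genotypes lie apart for Cbl on 1 of 2.

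Signs of RNA quality differed between adult arrays and, for the actin control, between stages. The actin control, measured at its 3 prime end minus its 5 prime end, gave 1.91, 1.47 and 1.09 in adult mutants and 1.13, 1.13 and 1.06 in adult wild types, with mutants 1 and 2 high. On embryonic arrays the actin value was lower, at 0.73, 0.80 and 0.78 in mutants and 1.025, 0.86 and 0.71 in wild types. The stages did not overlap. The Gapdh control, measured the same way, overlapped between stages, at -0.15 to 0.26 in adults and -0.19 to -0.03 in embryos. The mean of the 4 measured of 6 choroid plexus markers was 4.30, 4.06 and 6.58 in adult mutants and 4.37, 3.96 and 4.44 in adult wild types. Endothelium markers (5 of 6 measured) averaged 5.72 to 5.73 in adult mutants and 5.26 to 5.67 in adult wild types, and astrocyte markers 10.66 to 10.82 in adult mutants and 10.60 to 10.64 in adult wild types, with no overlap in either list. Oligodendrocyte markers were negative for 5 of 5 measured, with a median difference of -0.26. No gene of these lists passed the test. The part of RNA quality and of these markers in the adult differences was not tested. Leaving out any 1 of the 12 arrays left 0 members past the test in adults.

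In E12.5 telencephalon 0 of 35 members passed, against 0.0349% of all genes (4 genes), and 2 members had an unadjusted limma p under 0.05, against 516 of all genes. The difference was positive for 15 members and negative for 20, with a median of -0.04, against -0.01 over all genes. The genotypes did not overlap for 5 members, 2 higher and 3 lower in mutants, while 8.29% of all genes did not overlap.

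Cbl, with the lowest p in embryos, stood at 9.28, 9.41 and 9.32 in embryonic mutants and 9.68, 9.67 and 9.49 in embryonic wild types. All 3 mutant arrays lay below the wild types, with a difference of -0.28 (95% interval -0.53 to -0.03, limma adjusted p = 1), and the difference was -0.19 on the second probe set, where the genotypes overlapped. Lztr1 stood at 9.70, 10 and 9.90 in embryonic mutants and 10.40, 10.05 and 10.07 in embryonic wild types. The genotypes did not overlap, with a difference of -0.30 (limma, adjusted p = 1), and its other probe sets differed by -0.16 and 0.34. Braf stood at 7.85, 7.92 and 7.91 in embryonic mutants and 8.18, 8.06 and 8.07 in embryonic wild types, a difference of -0.21 (limma, adjusted p = 1), which became 0.02 with the mean of its probe sets. On the highest-mean probe sets all 4 negative regulators were negative in embryos, with a median of -0.13, and none passed. Over all genes 6113 of 11449 were negative. The other probe sets of Rasa1 differed by -0.01 and 0.21, and that of Rasa2 by -0.04.

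Rasgrp1 had the largest embryonic difference, 0.75, with a 95% interval of -0.62 to 2.12. Its embryonic values, listed above, were highest in mutant 1 and wild type 1, the 2 arrays of the first parental cross, and the genotypes overlapped. Across the same arrays the mean of the 4 measured of 6 ventral telencephalon markers was 7.23, 4.18 and 4.05 in embryonic mutants and 7.59, 5.58 and 3.92 in embryonic wild types, also highest in the first cross. The array of embryonic mutant 1 belongs to a later set than the other 5 embryonic arrays, by label. Microglia markers (6 of 6) averaged 4.10 to 4.49 in embryonic mutants and 3.84 to 4.05 in embryonic wild types, with no overlap. The part of these markers and of the array set in the embryonic differences was not tested. Without both arrays of the first cross, a choice made after seeing the data, 0 members passed.

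The adult and embryonic effects of the mutation were set against each other in one test. Of the 35 members 0 passed, as did 0% of all genes, with 2 members and 630 of all genes under an unadjusted limma p of 0.05. Fgfr1, with a positive adult difference (0.44) and a negative embryonic one (-0.13), had the lowest p among members, with a difference of 0.57 between its effects (95% interval 0.23 to 0.91, limma adjusted p = 0.65). Cbl (0.39, limma adjusted p = 0.88) and Lztr1 (0.39, limma adjusted p = 0.90) came next. On the second probe set of Fgfr1 the difference was 0.17 in adults and 0.17 in embryos. Tested probe set by probe set, 0 of the 88 member probe sets past the filter passed in adults, in embryos or for the difference between them.

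None of the other lists held a member past the test between genotypes. Among other components the lowest p in adults were those of the platelet-derived growth factor receptor gene Pdgfrb (0.40) and the exchange factor gene Rapgef1 (0.29), and in embryos those of Rasa3 (-0.39) and Rapgef2 (-0.25). The ligand gene Bdnf differed by -0.47 in adults, with adult mutants at 7.63 and adult wild types at 8.10, and Nrg3 by 0.64 in embryos, the ligands with the lowest p at each stage. Among ERK feedback and target genes Etv5, a transcription factor gene induced by fibroblast growth factor signals, differed by 0.81 in embryos (limma, adjusted p = 0.77) and Dusp7 by 0.36. Of the 15 feedback and target genes 11 were positive in embryos, with a median of 0.20, and 7 in adults, with a median of 0.00. Over all 11449 genes 5272 were positive in embryos, with a median of -0.01, and 6715 in adults, with a median of 0.03.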

How the data were processed

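Each of 12 Affymetrix arrays carried 45101 probe sets. Per the labels' protocols, RNA precipitated from guanidine hydrochloride went through 2 cycles of amplification and a biotin label. The deposited values are log2 expression values, and the submitters' processing notes name GCRMA, which models background from probe sequence and summarises the probes of a set. The sources used here give neither its version nor its settings. A log2 scale with a floor of 2.19 compresses low genes.

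The values were used as deposited. In the platform annotation 34945 probe sets had 1 gene symbol and 932 had several, which were left out. Genes were fitted with limma (version 3.58.1, R 4.3.3) by lmFit and eBayes over all 12 arrays, as 4 group means with 8 residual degrees of freedom. Contrasts were mutant minus wild type at each stage, the difference between these, and adult minus embryo in each genotype. P-values were adjusted by Benjamini-Hochberg over 11449 genes, and genes were called under 0.05. Standard errors (SE) and intervals are moderated. A gene "rose" or "fell" where it was called. The procedure was tested on simulated data.

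The members and lists were chosen with earlier results of these data known. All members may be named. Values on every array are given for the 3 members with the lowest p in each genotype test and for the 8 largest rises and 8 largest falls between stages in wild types with no overlap of arrays. Of each list up to 2 genes called higher and 2 called lower with the largest stage difference in wild types are named, and up to 2 with the lowest p between genotypes. Embryonic arrays of the same parental cross correlated at 0.14 to 0.51 in their deviations from group means and those of different crosses at -0.36 to -0.23. Adults of the same age pair correlated at -0.01 to 0.27, and those of different pairs at -0.30 to 0.23. Crosses and ages, from the labels, entered only an alternative as a block. Other alternatives varied the filter, probe sets, scaling, variance model, array weights and arrays.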

Additional observations from a re-analysis of the deposited data

Results flagged for a closer look

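A probe set of Ksr1 left out by the filter stood at 4.26 in adult mutant 3, above the filter of 4, where the 3 adult wild types stood at 3.42, 3.61 and 3.57. The other adult mutants stood at 3.28 and 3.47. A probe set of Ptpn11 left out by the filter stood at 4.56 in adult mutant 1, against 2.91, 2.87 and 2.25 in the adult wild types, with the other adult mutants at 3.08 and 2.89. Each was a single array, neither probe set was tested, and adult mutant 1 also had the highest actin 3 prime minus 5 prime difference (1.91).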

How the results depend on the processing

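Under 22 to 24 alternatives for each comparison, 0 members were called between genotypes in adults, in embryos or for the difference between them. In wild types 26 to 30 members were called between stages, and in mutants 23 to 28. Over all genes the calls ran between 0 and 7 in adults, 0 and 42 in embryos (42 with array weights) and 0 and 7 for the difference. With the age pair and cross as a replicate block 0 members and 3 genes were called in adults, 0 members and 1 gene in embryos, and 0 of either for the difference. Genotype differences, none called, changed sign in a small share of the recomputed values, but for many of the 35 members. In adults this was 40 of 839 values (17 members), in embryos 56 of 839 (24 members) and for the difference 54 of 804 (17 members). Averaging probe sets gave 8, 13 and 7 of these changes. Among values named in the text, the adult difference of Rasgrp1 became -0.4628 and the embryonic difference of Braf 0.0224 with averaged probe sets. Leaving out 1 array in turn, the adult difference of Rasgrp1 ran from -0.0778 (without adult mutant 1; -0.0002 without adult mutant 2) to 0.1966 (without adult mutant 3). Of the 30 members called between stages in either genotype, 2 changed sign in mutants, Araf (-0.0181) with averaged probe sets and Egfr (-0.0039) with quantile normalization over 12 arrays. Of 769 stage differences recomputed for members in wild types, 20 lost a call and 5 gained one, and of 659 in mutants 10 lost and 9 gained one. With averaged probe sets, Egfr (1.23), Igf1r (-0.61) and Sos1 (-0.33) were called in mutants and Lztr1 (0.16) was not. The stage contrasts were not run with quantile normalization within each stage, which scales the stages apart. They were also not run with the block, each of which lies within a single stage. With 3 arrays a group, small differences were not detectable, and values near the floor of 2.19 carry no order.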
